A study of Mus musculus with 10 samples.

Results

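Sod1 and the enzymes that work with it against superoxide and peroxide were examined in the adult hippocampus of Ts65Dn mice. The set was chosen by gene symbol and held 10 genes (Sod1, Sod2, Sod3, Ccs, Cat, Gpx1, Gpx4, Prdx1, Prdx6 and Hmox1), of which 9 had a row of their own among the 19938 genes measured. Prdx6 had no row carrying its symbol alone and was not analysed here. A gene with several rows was represented by the brightest. RNA of both hippocampi of each mouse was hybridised to 1 Affymetrix Mouse Gene 1.0 ST array. The arrays came from 5 Ts65Dn males and 5 control littermate males, all 16 weeks old and on an F1 hybrid B6C3B background. Per the study's methods, the C3B parent line carries the BALB/c allele of Pde6b, and littermates of both genotypes come from that background. Ts65Dn mice carry a small extra chromosome made of a piece of mouse chromosome 16 (Mmu16) joined to the centromeric piece of mouse chromosome 17 (Mmu17). Sod1 lies in that Mmu16 part and has 3 copies in Ts65Dn and 2 in controls, whereas the 8 other measured genes of the set have 2 copies in both genotypes. The Mmu17 part has no homology to human chromosome 21, so a difference between the genotypes cannot be assigned to the Mmu16 part alone. The RNA comes from whole tissue, in which fewer cells of a type and less RNA per cell cannot be told apart.

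Superoxide dismutases turn superoxide into hydrogen peroxide. SOD1 is the copper and zinc enzyme of the cytosol, SOD2 the manganese enzyme of mitochondria and SOD3 a secreted enzyme, and CCS is the chaperone that loads copper into SOD1. The hydrogen peroxide is then removed by catalase (Cat), which works mainly in peroxisomes, by glutathione peroxidases (Gpx1; Gpx4 acts on lipid peroxides) and by peroxiredoxins (Prdx1, Prdx6). Haem oxygenase 1 (Hmox1) breaks down haem and is a classical inducible gene of oxidative stress. Many of these genes are controlled through antioxidant response elements, DNA sites bound by NRF2 (Nfe2l2) together with a small MAF protein. NRF2 is held back by KEAP1, and BACH1 competes for the same sites as a repressor. SOD1 and BACH1 are both encoded on human chromosome 21, and their mouse genes both lie in the Mmu16 part that Ts65Dn carries in 3 copies.

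The regions just upstream of Sod1 and Prdx1 are shown because these were the genes of the set in which the core of an antioxidant response element, TGACNNNGC on either strand, was found. The sequences are those of RefSeq for GRCm38.p6, the C57BL/6J reference, from which the hybrid mice may differ. Each is 250 bases long, read on the gene's strand and ending at the base before the annotated start, at chr16:90220512-90220761 (plus strand) for Sod1 and chr4:116685349-116685598 (plus strand) for Prdx1. Capitals mark the match, which lies on the opposite strand in both.
Sod1: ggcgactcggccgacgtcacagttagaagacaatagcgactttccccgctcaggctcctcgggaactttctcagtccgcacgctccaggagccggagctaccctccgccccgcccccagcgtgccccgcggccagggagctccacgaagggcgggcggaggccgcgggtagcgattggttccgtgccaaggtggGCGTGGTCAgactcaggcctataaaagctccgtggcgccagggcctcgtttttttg
Prdx1: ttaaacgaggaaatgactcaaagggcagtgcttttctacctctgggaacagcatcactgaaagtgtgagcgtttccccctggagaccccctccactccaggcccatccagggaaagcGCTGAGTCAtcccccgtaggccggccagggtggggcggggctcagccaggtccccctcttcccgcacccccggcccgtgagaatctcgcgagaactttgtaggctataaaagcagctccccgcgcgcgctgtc
The match reads GCGTGGTCA in Sod1, from base -56 to base -48 counted back from the start, and GCTGAGTCA in Prdx1, from base -133 to base -125. Of the 6 genes of the set with an upstream sequence in the table, these 2 held a match, and the windows of Sod2, Cat, Gpx1 and the 4 starts of Gpx4 held none. Of the regulators described above, Nfe2l2 had 1 match (TGACTCCGC, from base -240 to base -232) and Bach1 had none. A match occurred in 10.2% of all 32851 annotated starts over the same length. It is a description of the letters and was not tested as a binding site.

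Sod1 was higher in the Ts65Dn hippocampus and was the only measured gene of the set that passed the test. Its log2 signal was 11.88, 11.99, 12.06, 12.04 and 12.04 in Ts65Dn mice, against 11.56, 11.68, 11.68, 11.79 and 11.81 in control mice. The lowest Ts65Dn value lay above the highest control value, so the genotypes did not overlap. The mean was 12.00 ± 0.0728 in Ts65Dn and 11.70 ± 0.0996 in controls (SD, n = 5 each), a difference of 0.30 ± 0.05 (log2, SE) or 1.23-fold. The 95% interval of the fold, 1.14 to 1.34, lay below the 1.5 of the copy numbers (3 against 2), on a signal scale whose ratios can be smaller than the ratios of RNA. The adjusted p was 0.0494 (limma, Benjamini-Hochberg over 23410 rows) and the exact permutation p 0.00794, the smallest that 5 against 5 mice allow. Across all tested rows, 0.316% passed the adjusted threshold in either direction, 0.312% passed it as higher in Ts65Dn, and 0.884% had genotypes that did not overlap.

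The call of Sod1 sat at the edge of the threshold, while its size changed little. Leaving out each mouse in turn gave differences of 0.27 to 0.33, all towards Ts65Dn. The adjusted p stayed under 0.05 without Ts65Dn mouse 1, the lowest of its group (0.037), or without control mouse 5, the highest of its group (0.0448). Without any of the other 8 mice it was between 0.0651 (control mouse 4) and 0.169 (control mouse 2 or control mouse 3).

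**Figure D1:**
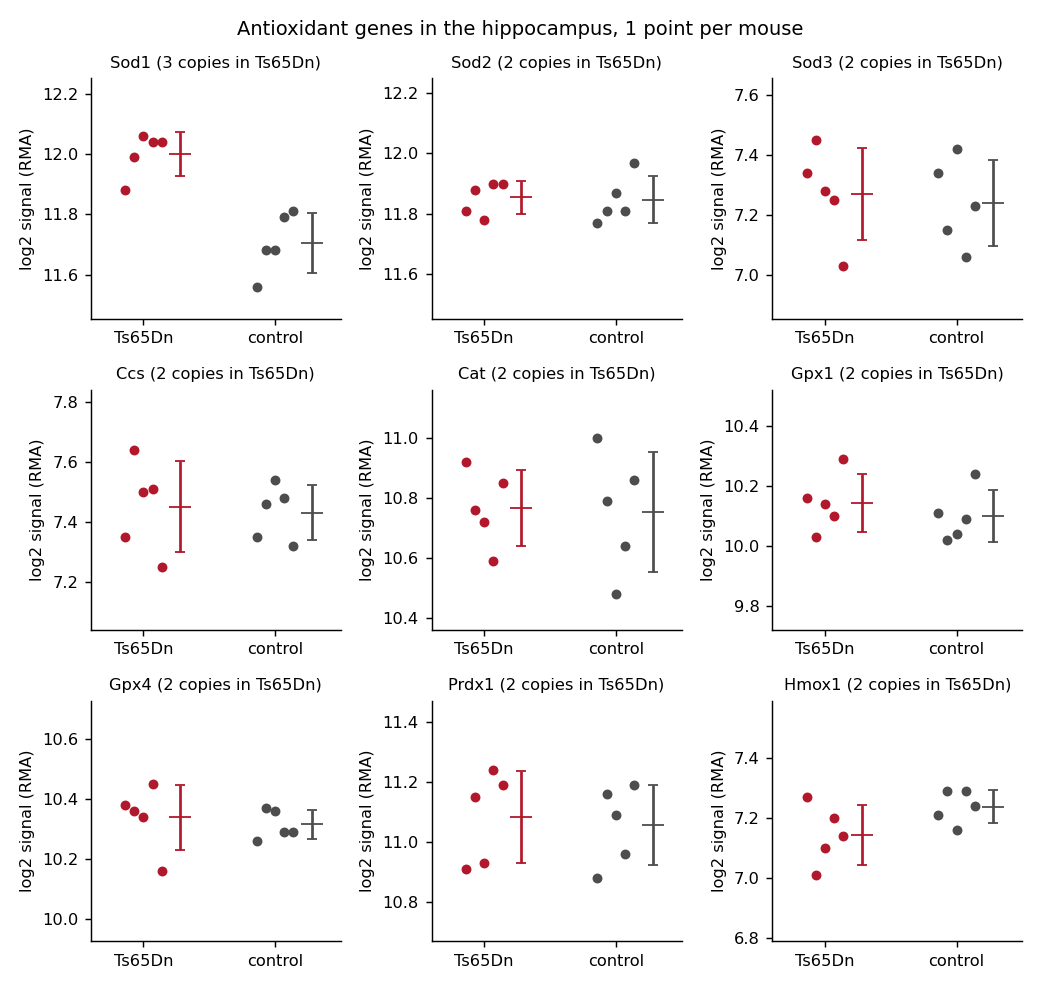
Log2 signal of the 9 measured antioxidant genes, 1 point per mouse, with Ts65Dn mice left and control mice right in each panel; the bar beside the points is the mean ± SD (n = 5). Every panel spans 0.8 log2 units. The groups separate for Sod1, with the lowest Ts65Dn mouse at 11.88 and the highest control at 11.81, and overlap in the other 8 panels.

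The other dismutases and the copper chaperone of SOD1 showed no difference that passed the test. Sod2 was at 11.81, 11.88, 11.78, 11.90 and 11.90 in Ts65Dn mice, against 11.77, 11.81, 11.87, 11.81 and 11.97 in control mice. The highest and the lowest of these 10 values were both controls. The fold was 1.01 (95% interval 0.939 to 1.08, adjusted p = 1.0). Sod2 is on chromosome 17, but at 13007839 to 13018119 (GRCm38.p6) it lies beyond the end of the part in 3 copies, taken at 8986648, the end of Pde10a.

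Sod3, the secreted dismutase, had a dimmer signal, of 7.34, 7.45, 7.28, 7.25 and 7.03 in Ts65Dn mice, against 7.34, 7.15, 7.42, 7.06 and 7.23 in control mice. The groups spanned nearly the same range. The difference was 0.03 ± 0.08 (log2, SE) and the 95% interval of the fold ran from 0.897 to 1.16. Ccs was at 7.35, 7.64, 7.50, 7.51 and 7.25 in Ts65Dn mice, against 7.35, 7.46, 7.54, 7.48 and 7.32 in control mice. Both the highest and the lowest value were in Ts65Dn mice, and the fold was 1.01 (0.908 to 1.13).

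Among the enzymes that remove peroxide, none passed the test. Catalase was at 10.92, 10.76, 10.72, 10.59 and 10.85 in Ts65Dn mice, against 11.00, 10.79, 10.48, 10.64 and 10.86 in control mice. Its controls spread more widely than any difference between the genotypes, which was 0.01 ± 0.09 (log2, SE; 1.01-fold, 95% interval 0.876 to 1.16). Gpx1 was at 10.16, 10.03, 10.14, 10.10 and 10.29 in Ts65Dn mice, against 10.11, 10.02, 10.04, 10.09 and 10.24 in control mice. The ranges nearly coincided, with a fold of 1.03 (0.946 to 1.12).

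Gpx4 and Prdx1 each had a second row on the array. The brightest row of Gpx4, the phospholipid hydroperoxide peroxidase, read 10.38, 10.36, 10.34, 10.45 and 10.16 in Ts65Dn mice, against 10.26, 10.37, 10.36, 10.29 and 10.29 in control mice. The highest and the lowest value were Ts65Dn mice 4 and 5, and the difference was 0.02 ± 0.05 (log2, SE). The identifier of this row stood among those of genes at 45.1 to 51.5 Mb of chromosome 10, away from Gpx4 itself, whose other row stood among genes at 80.0 to 80.2 Mb and also differed by 0.02 ± 0.05.

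The brightest row of Prdx1, a cytosolic peroxiredoxin, read 10.91, 11.15, 10.93, 11.24 and 11.19 in Ts65Dn mice, against 10.88, 11.16, 11.09, 10.96 and 11.19 in control mice. The genotypes overlapped almost fully, with a difference of 0.03 ± 0.08 (log2, SE). Prdx1 is on chromosome 4, but the identifiers around this row belonged to genes at 45.5 to 48.9 Mb of chromosome 16, outside the part in 3 copies. The other row, among its chromosome 4 neighbours at 116.5 to 117.0 Mb, read 10.28, 10.40, 10.14, 10.43 and 10.41 in Ts65Dn mice, against 10.24, 10.43, 10.37, 10.23 and 10.51 in control mice. It differed by -0.02 ± 0.07, so that the 2 rows gave opposite signs within their errors. Which RNA the brightest rows of Gpx4 and Prdx1 detected was not tested.

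Hmox1 had the largest difference among the genes in 2 copies, and it ran towards lower signal in Ts65Dn without passing the test. Its values were 7.27, 7.01, 7.10, 7.20 and 7.14 in Ts65Dn mice, against 7.21, 7.29, 7.16, 7.29 and 7.24 in control mice. Of the Ts65Dn mice, 3 lay below the lowest control, and Ts65Dn mice 1 and 4 lay within the control range. The difference was -0.10 ± 0.05 (log2, SE; 0.935-fold, 95% interval 0.867 to 1.01; adjusted p = 1.0, exact permutation p = 0.0952, n = 5 per group). Leaving out each mouse in turn gave -0.13 to -0.06, and the smallest unadjusted p of the limma fits was 0.0234, without Ts65Dn mouse 1. An unadjusted p under 0.05 was reached by 3.16% of all tested rows in the fit of 10 mice.

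**Figure D2:**
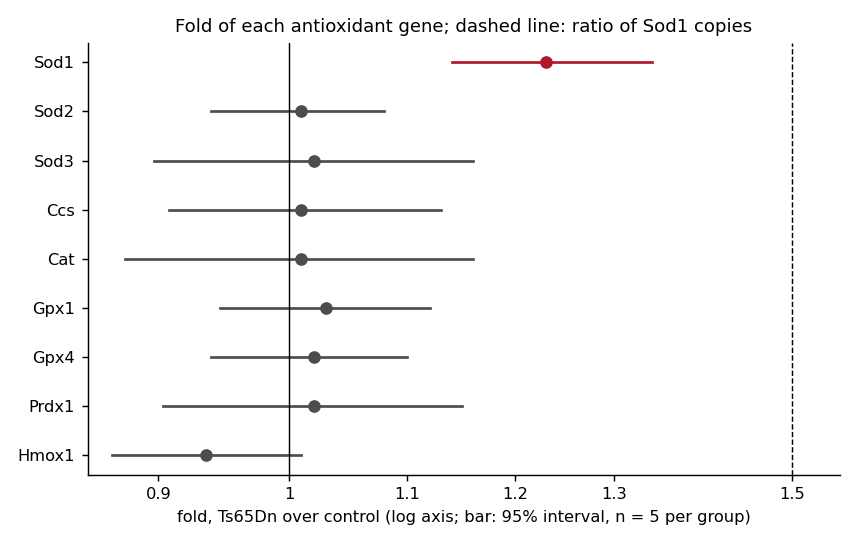
Fold of each antioxidant gene, Ts65Dn over control, on a log axis, with its 95% interval (n = 5 per group); the solid line marks no difference and the dashed line the ratio of Sod1 copies, 1.5. The interval of Sod1 (1.14 to 1.34) excludes both lines, and those of the other 8 genes include 1.

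Taken over the 8 measured genes in 2 copies, 7 differences were above 0 and 1 was below, with a median of 0.02 and a range of -0.10 to 0.04 (log2). Of all 23410 tested rows 11132 had a difference above 0, and the median over all of them was 0.00. The sign of 6 of the 8 genes changed under some of the alternatives described below. The adjusted p of each of the 8 genes was 1.0. Their intervals leave room for differences of up to 1.16-fold upward (Sod3 and Cat) and 0.867-fold downward (Hmox1).

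Whether Sod1 moved apart from its partners was tested on the difference of the log2 signals within each mouse. The 3 differences share the Sod1 values given above, so they are not independent of that result or of each other. Probe sets differ in their brightness per RNA molecule, so only the change between genotypes can be read from these differences. Sod1 minus Gpx1 was 1.73, 1.96, 1.93, 1.94 and 1.75 in Ts65Dn mice, against 1.45, 1.65, 1.65, 1.70 and 1.57 in control mice, with no overlap. The change was 0.26 (two-sided exact permutation p = 0.00794, 0.0238 adjusted over the 3 partners, n = 5 per group). Without control mouse 1 the adjusted p was 0.0714.

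Sod1 minus Ccs was 4.53, 4.35, 4.56, 4.54 and 4.80 in Ts65Dn mice, against 4.21, 4.22, 4.14, 4.31 and 4.49 in control mice, and 4 of the 5 Ts65Dn values lay above every control. The change was 0.28 (exact permutation p = 0.0159, 0.0238 adjusted). It no longer passed without control mouse 1 or control mouse 2 (adjusted exact p = 0.0714 each). Sod1 minus Cat was 0.96, 1.23, 1.34, 1.45 and 1.19 in Ts65Dn mice, against 0.56, 0.89, 1.20, 1.15 and 0.94 in control mice, with a wider spread in both genotypes. Its change of 0.29 did not pass (exact permutation p = 0.0556, 0.0556 adjusted), although it did without Ts65Dn mouse 1, control mouse 3 or control mouse 4 (adjusted exact p = 0.0476 each).

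**Figure D3:**
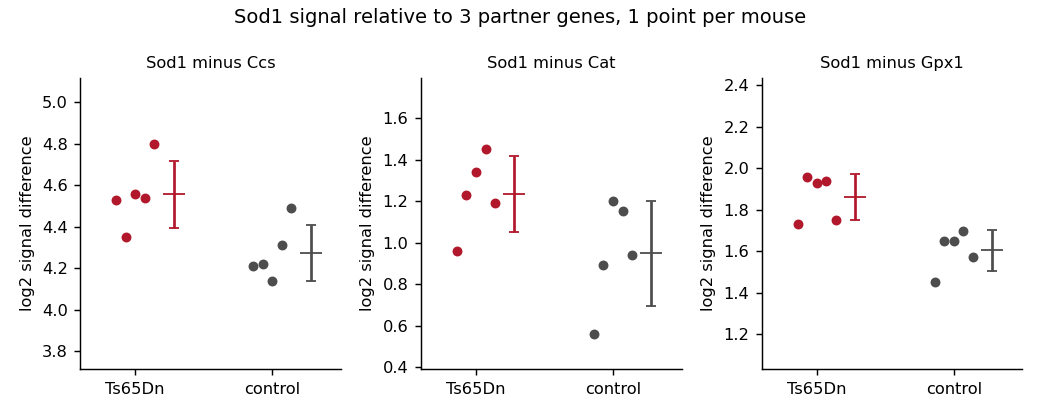
Log2 signal of Sod1 minus that of Ccs, Cat and Gpx1, 1 point per mouse, Ts65Dn left and control right, with the mean ± SD (n = 5). The groups separate for Gpx1, whose lowest Ts65Dn value is 1.73 and highest control value 1.70, and overlap for Ccs and Cat.

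The wider pathway was followed in 10 lists that together named 87 further genes, 83 of them measured. In Ts65Dn 2 of the 83 were higher and 0 were lower after adjustment, against 0.316% of all tested rows called in either direction. Both, Bach1 and Cbr1, are Mmu16 genes in 3 copies. The only other 3-copy gene of the lists was Cbr3. None of the 80 measured genes in 2 copies passed, and 3 of them reached an unadjusted p under 0.05, all higher in Ts65Dn, where 3.16% of all tested rows did so in either direction. The median difference of the 80 was 0.01, with a range of -0.13 to 0.16 (log2).

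Bach1, the repressor that competes with NRF2, read 8.03, 8.13, 7.97, 8.11 and 8.15 in Ts65Dn mice, against 7.83, 7.81, 7.79, 7.85 and 7.89 in control mice, with no overlap. The difference was 0.24 ± 0.04 on the log2 scale (SE), or 1.18-fold with a 95% interval of 1.11 to 1.26. It passed the limma test (adjusted p = 0.0404, exact permutation p = 0.00794, n = 5 per group). Its adjusted p passed in 1 of the 10 fits that left out a mouse, the one without Ts65Dn mouse 3 (0.019), and reached 0.154 without control mouse 3. The direction was the same in all 10.

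The other regulators of NRF2 showed no called difference. Nfe2l2, which encodes NRF2, read 9.01, 9.33, 8.88, 9.43 and 9.18 in Ts65Dn mice, against 9.19, 9.34, 9.02, 8.75 and 9.13 in control mice, a wide spread in both genotypes and a difference of 0.08 ± 0.12 (log2, SE). Keap1 differed by 0.02 ± 0.04. Of the 8 genes of this list, Bach1 was the 1 that passed the test.

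Among 12 measured NRF2 target genes, Cbr1 passed and the list's median was -0.02 (log2). Cbr1, a carbonyl reductase, read 9.40, 9.46, 9.32, 9.49 and 9.16 in Ts65Dn mice, against 8.96, 9.11, 8.96, 8.96 and 8.86 in control mice, without overlap (0.39 ± 0.07, 1.31-fold, adjusted p = 0.0321). In fits that left out a mouse it passed without Ts65Dn mouse 5 (adjusted p = 0.00689) or control mouse 2 (0.0344), and the adjusted p reached 0.112 without control mouse 3. Cbr3, the neighbouring reductase gene, was dimmer and more variable. It read 6.91, 7.05, 7.50, 7.27 and 7.37 in Ts65Dn mice, against 6.58, 6.83, 7.01, 6.71 and 6.95 in control mice, with a difference of similar size (0.40 ± 0.12) that did not pass (adjusted p = 0.675). The 10 target genes in 2 copies held no call.

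The lists of enzymes and cofactors in 2 copies stayed near 0. The 7 measured peroxidases had a median of -0.01 (log2), with Gpx3, a secreted glutathione peroxidase, at 0.16 ± 0.13. The 11 genes of the thioredoxin system had a median of 0.03, and the smallest p among them was that of Txnrd3, a thioredoxin reductase (0.09 ± 0.04, adjusted p = 1.0). The 12 genes of glutathione synthesis and use had a median of -0.02, and Gclc, the catalytic subunit of the rate-limiting enzyme of glutathione synthesis, differed by -0.09 ± 0.05. None of these 3 lists held a call.

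The haem and metal supply lists gave similar values. The 6 genes of the haem list had a median of 0.00, and Hmox2, the constitutive haem oxygenase, differed by -0.02 ± 0.06 (log2, SE). Beside genes of haem breakdown that list held Alas1 and Fech, of haem synthesis, and Slc40a1, an iron exporter gene. The 11 genes of copper handling had a median of 0.04, with Atox1, a copper chaperone of the secretory pathway, at 0.10 ± 0.09. The 7 genes of the selenoprotein list had a median of -0.02 (Sephs2, the selenophosphate synthetase, at -0.05 ± 0.05). They were genes of selenoprotein synthesis, on which selenium-containing glutathione peroxidases depend, and the selenoprotein genes Selenop and Selenow. The 7 genes of superoxide sources had a median of 0.03, with Ncf4, a subunit of the phagocyte NADPH oxidase, at 0.15 ± 0.09.

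The repair of oxidised molecules was the list with the highest median, 0.12 (log2) over 8 genes, 3 of which reached an unadjusted p under 0.05 (3.16% of all tested rows did) and none the adjusted threshold. These 3 are the same genes counted above among the 80 in 2 copies. The 3 encode methionine sulfoxide reductases, which reduce oxidised methionine. Msrb2 read 8.55, 8.55, 8.57, 8.61 and 8.35 in Ts65Dn mice, against 8.32, 8.48, 8.36, 8.37 and 8.31 in control mice, so that 4 Ts65Dn mice lay above every control. The differences were 0.16 ± 0.05 for Msrb2, 0.12 ± 0.05 for Msra and 0.13 ± 0.06 for Msrb3 (log2, SE; adjusted p = 1.0 for each). All 3 lie outside the extra chromosome.

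**Figure D4:**
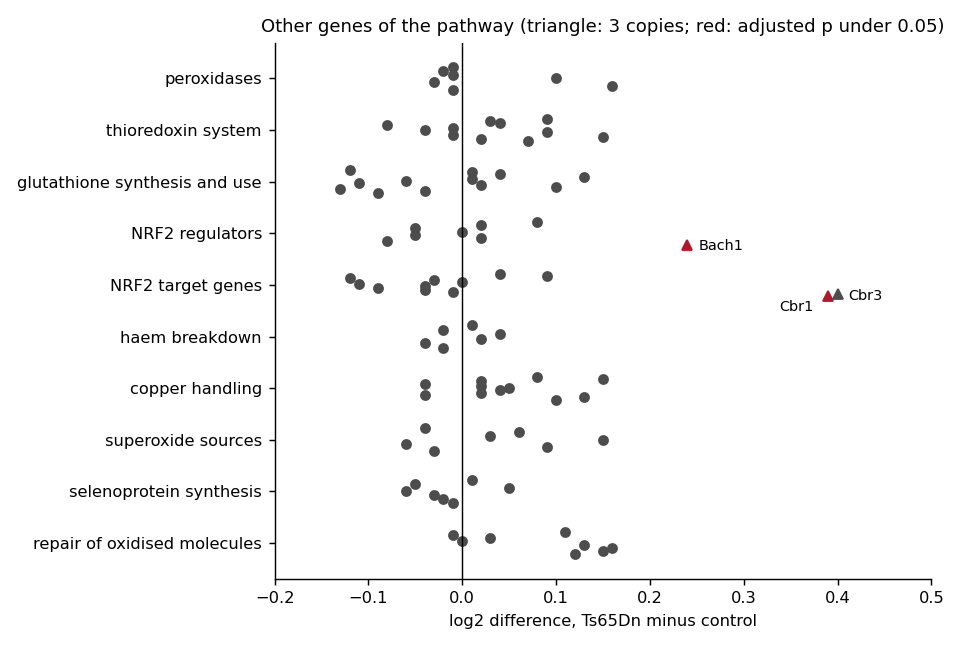
Log2 difference, Ts65Dn minus control, of the measured genes of 10 pathway lists, 1 symbol per gene and list; triangles are genes in 3 copies, and red marks an adjusted p under 0.05. Bach1 (0.24), Cbr1 (0.39) and Cbr3 (0.40) lie to the right of every gene in 2 copies, which range from -0.13 to 0.16.

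Sod1 was then set beside its neighbours on Mmu16, where 42 of the 127 measured genes in 3 copies passed the test as higher in Ts65Dn. The median difference of the 127 was 0.20 (log2, 1.15-fold). Of the 127, 52 had a larger difference than Sod1, and 37 of these were among the 42 called. The median fold of the called genes was 1.33, above the 1.23-fold of Sod1. Passing the threshold favours large differences, so this median runs high, and Sod1 lay above the 1.15-fold median of the 127. The 127 also include dim genes, such as Krtap8-1, Krtap7-1, Krtap11-1, Gm10789 and Mrap near Sod1, which differed by -0.03 to 0.05 (log2). The brighter neighbours Tiam1, Scaf4, Hunk, Mis18a and Urb1 differed by 0.36 to 0.46, each more than the 0.30 of Sod1.

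The transcript just downstream is Scaf4, which encodes an RNA-binding protein and whose lowest coordinate lies 8 kb from that of Sod1. It read 9.51, 9.58, 9.42, 9.55 and 9.33 in Ts65Dn mice, against 9.13, 9.12, 9.14, 9.10 and 9.12 in control mice. The controls lay within 0.04 of each other, far below every Ts65Dn mouse (0.36 ± 0.05, adjusted p = 0.00714). Hunk, a protein kinase gene 165 kb from Sod1 on the same side, was higher by 0.46 ± 0.07 (adjusted p = 0.0122), and Tiam1, a Rac exchange factor gene at -434 kb, by 0.40 ± 0.06 (adjusted p = 0.021). Scaf4 and Hunk passed in all 10 fits that left out a mouse, and Tiam1 in 3 of them, those without Ts65Dn mouse 5, control mouse 4 or control mouse 5.

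Mis18a and Urb1 had genotypes that did not overlap, with differences of 0.36 ± 0.08 and 0.42 ± 0.08 (log2, SE), but did not pass (adjusted p = 0.254 and 0.0662). Mis18a encodes a centromere protein and Urb1 a protein of ribosome biogenesis. Urb1 passed without Ts65Dn mouse 2 (adjusted p = 0.0391). The remaining 5 neighbours, Krtap8-1, Krtap7-1, Krtap11-1, Gm10789 and Mrap, had differences of -0.03 to 0.05 and overlapping genotypes. Their mean signals were 5.41 to 6.68 in Ts65Dn mice and 5.43 to 6.65 in control mice, below the array medians of 7.38 to 7.41. The Krtap genes encode keratin-associated proteins, known from hair, and Mrap encodes an accessory protein of the ACTH receptor.

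**Figure D5:**
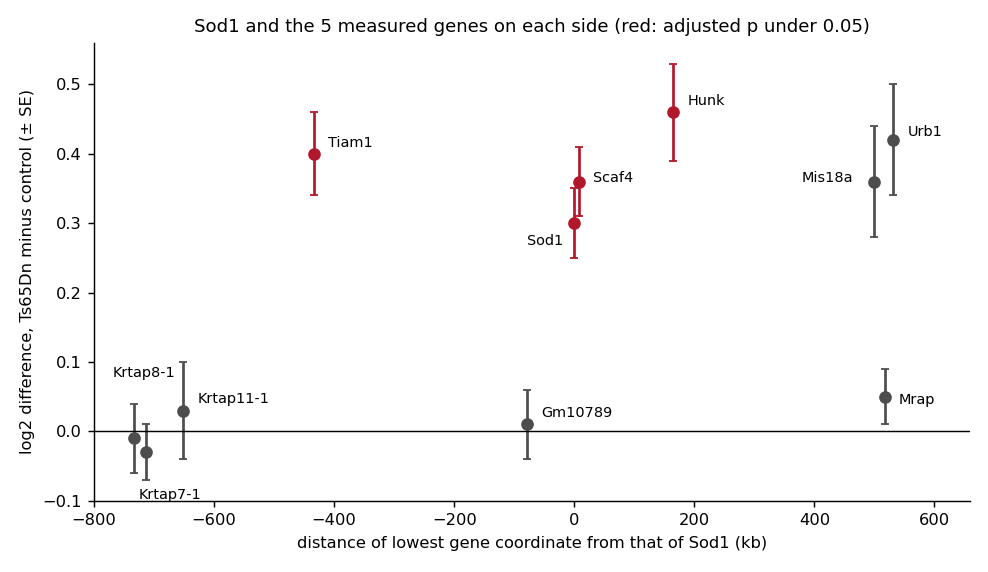
Log2 difference, Ts65Dn minus control (± SE, n = 5 per group), of Sod1 and the 5 measured genes on each side, against the distance of each gene's lowest coordinate from that of Sod1 in kb; red marks an adjusted p under 0.05. Sod1 (0.30), Tiam1 (0.40), Scaf4 (0.36) and Hunk (0.46) are red, and 5 dim genes lie between -0.03 and 0.05.

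The genes whose pattern was most like that of Sod1 over the 10 arrays were Hlcs, which encodes holocarboxylase synthetase (Pearson r = 0.97), Ltn1, the listerin ubiquitin ligase (0.97), Brwd1, a bromodomain protein (0.96), Kcnj6, a potassium channel subunit (0.96), and App, the amyloid precursor protein (0.96). All 5 are Mmu16 genes in 3 copies, so the likeness includes the step between genotypes that they share with Sod1. When each value was taken as its deviation from the mean of its genotype, the 5 most alike were Ndufs3, a subunit of respiratory complex I (0.97), Sergef (0.96), Atxn10 (0.96), Rbm15 (0.96) and Chd8 (0.95), none of them in 3 copies. These 10 genes were the highest among 19938 searched with 10 arrays, and the values share their arrays and normalization, so they are given as a description. Among the antioxidant genes, r with Sod1 over the 10 arrays ran from -0.54 for Hmox1 to 0.36 for Gpx1. These values include the step of Sod1 between genotypes. Over deviations from the genotype means, r ran from -0.51 for Sod3 to 0.54 for Sod2, with Hmox1 at -0.09.

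Lists of marker genes of cell types were compared between the genotypes. They were not compared with other brain regions, so they do not check the tissue label. The mean of 9 neuronal markers was 11.93 to 11.99 in Ts65Dn mice and 11.92 to 11.99 in control mice, and that of 9 astrocyte markers was 10.73 to 10.76 in Ts65Dn mice and 10.72 to 10.81 in control mice. Microglial markers (9 of 10 measured) were at 8.63 to 8.93 in Ts65Dn mice and 8.58 to 8.76 in control mice. Oligodendrocyte markers (5 of 6 measured) were at 11.29 to 11.86 in Ts65Dn mice and 11.58 to 11.72 in control mice. No gene of the 8 marker lists passed the adjusted threshold. The 8 markers of choroid plexus, a tissue that borders the hippocampus, varied most between mice, at 7.07 to 10.01 in Ts65Dn mice and 7.11 to 9.79 in control mice. Their mean was higher in Ts65Dn by 0.24 (log2), the largest difference of the 8 lists, with -0.05 to 0.06 in the others. In the limma fit 0 of these 8 markers reached an unadjusted p under 0.05. The part of the choroid plexus variation in the values above was not tested.

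A rank test over all 25 pairs of a Ts65Dn and a control array, modelled on the method of the study, called 5.36% of all rows. Its bounds are set from the spread of the mean ranks of all rows, so about this share is called whether or not rows differ. Of the antioxidant genes the rank test called Sod1 as higher in Ts65Dn, and none of the other 8. Of the 83 pathway genes it called 8, all as higher: Bach1, Cbr1 and Cbr3 in 3 copies, and Gpx3, Msra, Msrb1, Msrb2 and Msrb3 in 2 copies.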

How the data were processed

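The authors deposited log2 signals after RMA (background correction, quantile normalization and a summary per transcript cluster, the array's set of probes for a transcript). RMA, limma and mm10 are named in the submitters' processing notes, with no versions. RMA summaries understate ratios of dim genes. For arrays the number of mice, 5 per genotype, limits the precision.

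Of 35556 rows, 21789 carried 1 gene symbol in the platform annotation, 1621 several and 12146 none. The 23410 rows with a symbol were tested, and only rows with 1 symbol named a gene, of which 21698 matched RefSeq (GRCm38.p6) by gene number. Each of the 10 value columns belonged to a labelled mouse, and 0 pairs of arrays held identical values. The labels call each array a biological replicate.

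Genotype was the only term in lmFit and eBayes of limma 3.58.1 (R 4.3.3), two-sided, with Benjamini-Hochberg adjustment over all tested rows and a threshold of 0.05. Unless another test is given, adjusted p-values come from limma, and the fit was tested on simulated data. Single values were also compared by an exact permutation test over 252 allocations (numpy 2.4.6). The rank test ranked the differences of each array pair, trimmed 25% of the ranks at each end and called probabilities below 0.025 or above 0.975. The probabilities were read from a normal curve with the mean and SD of the trimmed mean ranks of all rows. The rank test was written anew and may differ from the program of the study. Fold changes are antilogs of log2 differences.

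The antioxidant genes, the lists and the rule for named genes were chosen with earlier results of these data known. The rule takes all genes of the set, the 5 measured genes on each side of Sod1, each list's called genes or else those with the smallest p, Bach1, Nfe2l2, Keap1, Hmox2 and Atox1, and the 5 genes most like Sod1 by either correlation. Alternatives were other rows, normalizations, variance models, thresholds, the rank test, the replicate number as a block and leaving out each mouse. Plots were drawn with matplotlib 3.10.9.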

Additional observations from a re-analysis of the deposited data

Results flagged for a closer look

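The 102 measured genes of the set, the pathway lists and the neighbours of Sod1, together with the 3 differences between Sod1 and a partner, gave 210 groups of 5 mice. In 10 of these groups 1 mouse lay far from the others, with a gap to the next mouse above 0.71 of the group's range (Dixon's criterion). Chance alone gives about 1 in 20, so the count was near that of chance and the values are given as a description. Among Ts65Dn mice, Mis18a was at 7.38 in mouse 4, against 6.94 to 7.04 in the other 4 mice. In the same mouse Cox17, a copper chaperone of mitochondria, was at 6.75 (6.41 to 6.48 in the others), and Gpx2, a glutathione peroxidase known from the gut, was at 5.79 (6.06 to 6.15). Msrb2 was at 8.35 in Ts65Dn mouse 5 (8.55 to 8.61 in the others), and Nudt1, which clears oxidised nucleotides, was at 6.18 in Ts65Dn mouse 3 (6.10 to 6.12).

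Among controls, each such value belonged to control mouse 5. Nqo1, a quinone reductase and NRF2 target, was high at 6.72, against 6.06 to 6.13 in the other controls. The remaining genes were low in this mouse: Mafg, a small MAF partner of NRF2, at 8.45 (8.55 to 8.58 in the others), Srxn1, the sulfiredoxin gene, at 9.43 (9.51 to 9.54), Glrx2, a mitochondrial glutaredoxin, at 10.90 (10.97 to 11.00), and Ncf4 at 5.71 (5.87 to 5.93). None of the 9 measured antioxidant genes of the set had such a mouse in either genotype.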

How the results depend on the processing

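The difference of Sod1 kept its direction under all 23 alternatives, but its adjusted p rose above 0.05 with array weights (0.28, adjusted p = 0.0527), with every row of the table tested (0.30, 0.0874) and after a further quantile normalization (0.29, 0.123), and it did not pass a threshold of 0.01 (0.30). In these 4 settings the count of called antioxidant genes was 0 in place of 1, and it was 0 to 1 when a mouse was left out (Sod1 0.27 to 0.33). Bach1 did not pass with a trended variance (adjusted p = 0.134) or with every row tested (0.0674), nor did Cbr1 with every row tested (0.06). The count of called pathway genes was 2, and it was 1 with a trended variance, 0 with every row tested, 0 at 0.01, 8 by the rank test and 0 to 1 without a mouse. Over all rows 74 were called, 1255 by the rank test, 41 at 0.01 and 51 to 63 without a mouse. None of the 8 other antioxidant genes was called under any alternative. Small differences changed sign: Ccs 0.00 and Hmox2 0.01 with array weights, Sod2 -0.01 after quantile normalization, and Prdx1 -0.02 in its other row, an alternative chosen after seeing the data. Without a mouse the ranges were -0.05 to 0.07 for Cat, -0.03 to 0.07 for Ccs, -0.01 to 0.07 for Gpx4 and Prdx1, -0.01 to 0.04 for Sod2, -0.02 to 0.09 for Sod3, -0.06 to 0.03 for Hmox2, -0.01 to 0.04 for Keap1 and 0.00 to 0.15 for Nfe2l2. Sod1 relative to its partners ranged from 0.22 to 0.33 for Ccs, 0.19 to 0.36 for Cat and 0.22 to 0.29 for Gpx1. Sod3 and Hmox1 were too dim to be tested among rows above the median signal.

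The labels number the mice in each genotype without saying what a number shares. Same-numbered mice correlated in their deviations with r of 0.51, 0.27, 0.32, 0.03 and 0.46, and 4 of 5 Ts65Dn mice and 3 of 5 controls correlated best with their own number. This is a hint of pairing in the data, but 1 of the 5 correlations (0.03) was not above 0.1 and no label gives a pairing, so the fit without the block was kept. With the number as a replicate block, 76 rows were called, Sod1 differed by 0.30 (adjusted p = 0.0197), Bach1 (0.0568) and Tiam1 (0.105) did not pass, and Cbr3 (0.40, 0.0301) and Urb1 (0.42, 0.036) did. The 2 pathway genes called with the block were thus Cbr1 and Cbr3. A sign-flip test over same-numbered pairs (a replicate block) gave 0.28 for Ccs and 0.26 for Gpx1 with exact p = 0.0625, the smallest that 5 pairs allow.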
